A study of Mus musculus with 23 samples.

Results

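The genes described here encode the machinery that brings new proteins into the endoplasmic reticulum (ER) and carries them between the ER and the Golgi apparatus. They were chosen by symbol: the signal recognition particle (Srp) and its receptor, the Sec61 channel and other Sec genes, the translocon-associated proteins (Ssr), the signal peptidase (Spcs and Sec11), the COPI coat (Copa to Copz), p24 proteins (Tmed), KDEL receptors, lectin and other cargo receptors (Lman1, Lman2 and their relatives, Surf4, Mcfd2), Sar1, TRAPP subunits, Bet1, Bet1l and Stx5a. The rule found 88 genes among the 19938 measured. It also takes in Sec1 and the Sec14l genes, which carry the prefix but are not known as parts of this machinery; these 6 genes are counted apart. RNA was measured on 23 single-channel arrays in macrophages grown from the bone marrow of C57BL/6 wild-type mice with 10 ng/mL of M-CSF for 6 days. The groups were cells given 250 µM stearic acid (SA, a saturated fatty acid) for 20 h (n = 4) or 5 h (n = 4), 250 µM oleic acid (OA, a monounsaturated one) for 20 h (n = 4) or 5 h (n = 4), 1 ng/mL of lipopolysaccharide (LPS, n = 4) and the vehicle, 125 µM bovine serum albumin (BSA, n = 3). Both acids were bound to BSA. The sample labels give 5 h for LPS and BSA and the series text gives 4 h; 5 h is used below. No 20 h vehicle is among the groups, so the acids were set against each other at 20 h. The samples are called replicate wells in one place and biological replicates in another, and the p-values measure the spread between them, which may be technical.

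As background, a protein bound for secretion is caught by the signal recognition particle as it leaves the ribosome, delivered to the receptor at the ER membrane, threaded through the Sec61 channel and trimmed by the signal peptidase. Folded cargo then leaves the ER in COPII vesicles, which tethers and SNARE proteins guide to the Golgi, while COPI vesicles and the KDEL receptors return escaped ER proteins. When unfolded proteins collect in the ER, the sensors IRE1, PERK and ATF6 start the unfolded protein response, and its transcription factors XBP1 and ATF6 are known to raise many of these genes. Macrophages use the route for cytokines, lysosomal enzymes and surface receptors.

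Values are log2 expression, so a difference of 1 is a 2-fold difference, and a gene is called changed at an adjusted p under 0.05 (limma, Benjamini-Hochberg over all 19938 genes). The genes of this route were well expressed, with a median level of 7.12 against 4.25 over all genes. Array medians over all probe sets lay between 3.98 and 4.12, and 12 of the 88 genes had a mean below every one of them, so that they were not shown to be above background: Kdelr3, Lman1l, Sec1, Sec14l2, Sec14l3, Sec14l4, Sec14l5, Sec16b, Sec31b, Tmed6, Tmed11 and Trappc3l. Replicate 2 of 20 h SA stood apart from the rest of its group: the SD of its deviations from the group mean was 0.177 over the 88 genes, against 0.101 to 0.120 on the other 3 arrays. Counts at 20 h are therefore also given without it, an alternative chosen after seeing the data. Macrophage markers were above the array medians in every group for 9 of 9 measured genes. The summed level of the 9, on the linear scale, was 9241 to 9587 in 20 h SA, 12234 to 12752 in 20 h OA, 11408 to 11984 in 5 h SA, 12666 to 12931 in 5 h OA, 12574 to 13104 with LPS and 12869 to 13325 with BSA. At 20 h, 8 of the 9 fell with SA relative to OA, C1qa by 2.65 and Fcgr1 by 2.13; fewer cells of a type and less RNA per cell cannot be told apart in such bulk samples, and the part of this shift in the results below was not tested. Of markers of other cells, 1 of 4 for T and B cells fell and none of 6 for neutrophils, 4 for dendritic cells, 2 for erythroid cells and 5 for stromal cells was called by limma in that comparison (0, 1, 0 and 0 at an unadjusted p under 0.05).

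At 20 h, genes of most steps of the route were higher with SA than with OA, while few of 15 TRAPP tethers were called (1 rose and 2 fell). Of the 88 genes, 42 rose and 3 fell, or 51.1%, where 16.7% of all genes were called (7.72% up and 8.95% down). The shares over all genes, here and below, include many genes dimmer than the 88 (median level 4.25 against 7.12). The part of this in the gap was not tested. The median difference over the 88 was 0.23, against 0.03 over all genes, and 71 of the 88 differences were above 0. The 2 groups did not overlap for 44 of the 88, where that held for 20.2% of all genes. Most changes were moderate, and 2 genes, the SNARE Bet1 and the COPII adaptor Sec24d, were at least 2-fold higher. Without replicate 2 of 20 h SA 46 genes were called, 44 up and 2 down: Copa (adjusted p = 0.0696), Sec24c (0.0721) and Trappc6a (0.185) were no longer called, while Lman2, Sec11a, Srp9 and Trappc5 were.

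**Figure D1:**
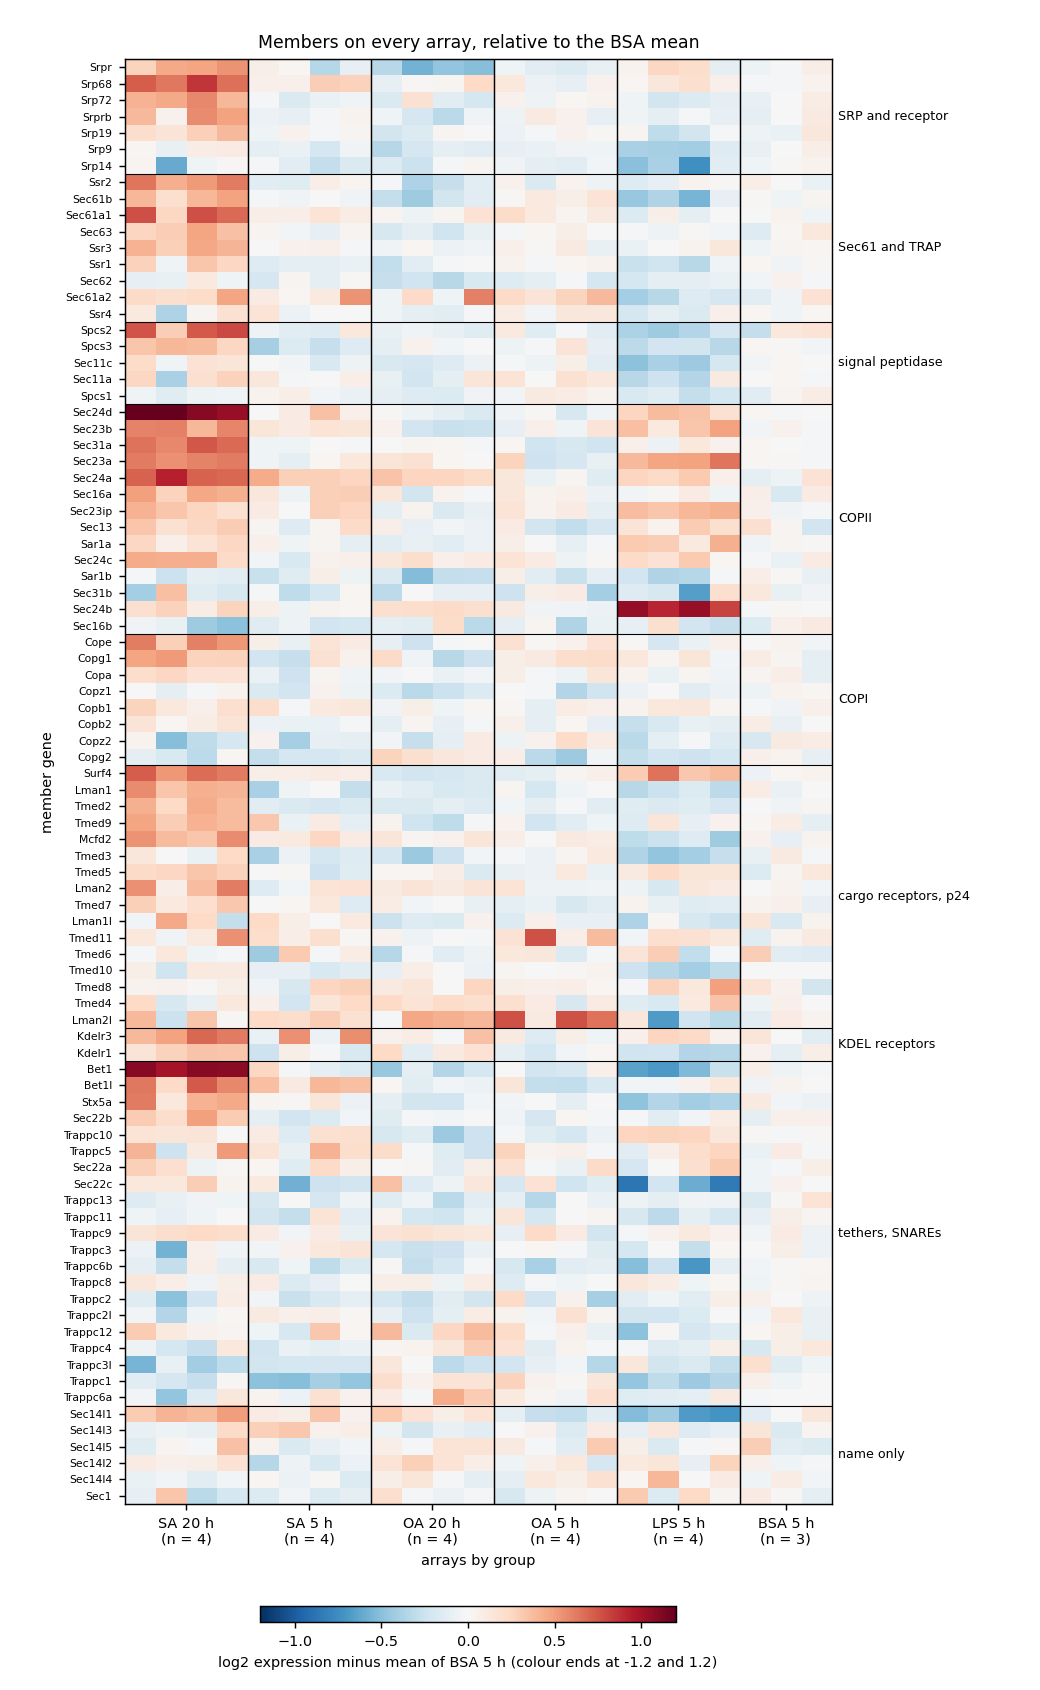
Level of each of the 88 genes (rows, grouped by role) on each of the 23 arrays (columns, grouped by treatment), as log2 expression minus the mean of the 3 BSA arrays, red for higher and blue for lower. The 20 h SA columns are mostly red from the signal recognition particle to the SNAREs, and the LPS columns combine red COPII rows such as Sec24b with blue rows in most other roles.

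**Figure D2:**
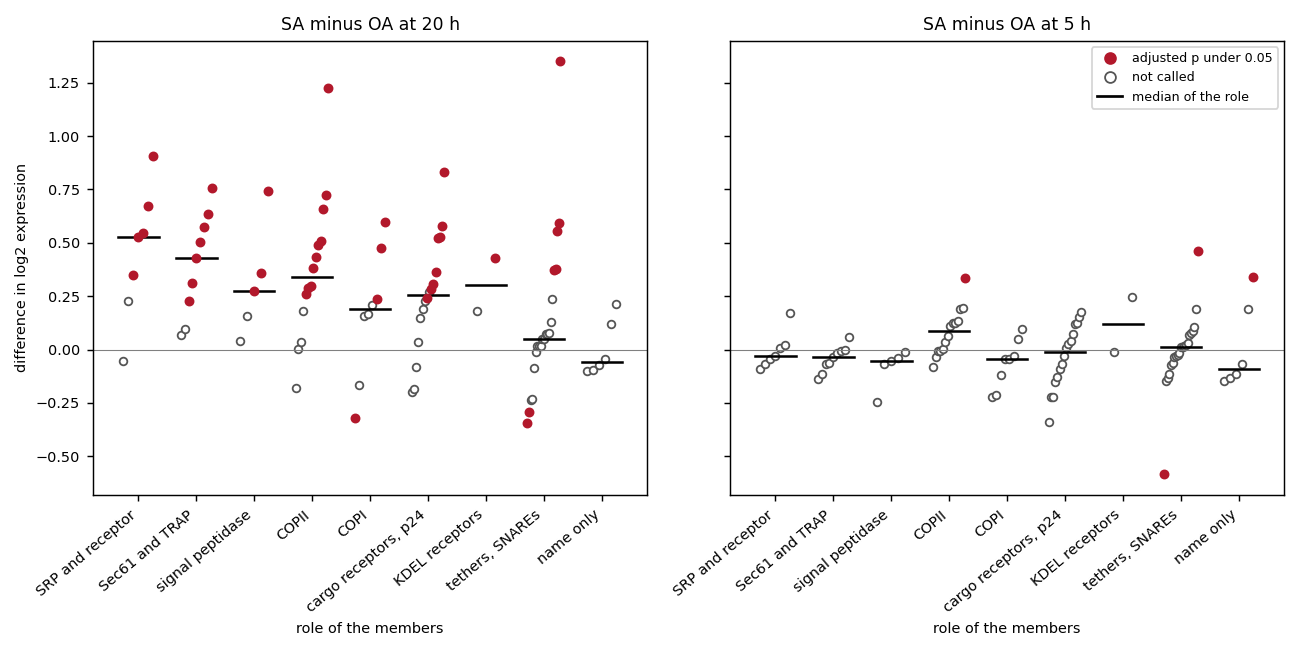
Difference in log2 expression between SA and OA for each gene (points, filled where the adjusted p is under 0.05) by role at 20 h (left) and 5 h (right), with the median of each role as a line. At 20 h 42 points are called above 0 and 3 below; at 5 h 3 are called above and 1 below.

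Targeting to the ER is the first step of the route. Of 7 measured genes of the signal recognition particle and its receptor, 5 were higher with SA and none fell (6 and none without replicate 2). Srpr, the receptor subunit that docks the particle, stood at 7.41, 7.60, 7.62 and 7.69 in 20 h SA, against 6.81, 6.58, 6.67 and 6.63 in 20 h OA. Every SA array was above every OA array, and the difference was 0.91 ± 0.097 (SE, adjusted p = 1e-07), a 1.87-fold increase. Srp68, which with Srp72 forms the largest protein module of the particle, had 7.67, 7.58, 7.80 and 7.61 in SA and 6.85, 6.96, 6.98 and 7.19 in OA. The groups were again apart, by 0.67 ± 0.087 (SE, adjusted p = 2.29e-06). Its partner Srp72 rose by 0.55 ± 0.084 (SE, adjusted p = 2.5e-05) and the membrane-anchored receptor subunit Srprb by 0.53 ± 0.097 (SE, adjusted p = 0.000222). The dimer that halts elongation did not pass the test: Srp9 differed by 0.23 ± 0.080 (SE, adjusted p = 0.0502) and Srp14 by -0.05 ± 0.13 (SE, adjusted p = 0.869), with 1 SA array, replicate 2, far below the others for Srp14.

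At the channel, 7 of 9 genes of the Sec61 complex, its partners and the translocon-associated proteins rose and none fell (7 and none without replicate 2). Ssr2, the β subunit of the translocon-associated complex that assists the entry of some signal sequences, had 8.62, 8.41, 8.49 and 8.60 in 20 h SA and 7.95, 7.60, 7.70 and 7.84 in 20 h OA. SA lay above OA on every array, by 0.76 ± 0.089 (SE, adjusted p = 5.2e-07). Sec61b, the β subunit of the channel, stood at 10.09, 9.89, 10.09 and 10.18 in SA, against 9.41, 9.27, 9.48 and 9.57 in OA. It differed by 0.63 ± 0.092 (SE, adjusted p = 1.11e-05), again without overlap. The pore subunit has a pair of paralogues: Sec61a1, the major form, rose by 0.58 ± 0.097 (SE, adjusted p = 8.65e-05), while Sec61a2 differed by 0.10 ± 0.13 (SE, adjusted p = 0.739), with a 95% interval from -0.17 to 0.37. The signal peptidase cuts off the signal sequence inside the ER, and 3 of its 5 genes rose (4 without replicate 2). Spcs2, an accessory subunit, had 8.73, 8.28, 8.72 and 8.77 in 20 h SA and 7.89, 7.93, 7.89 and 7.83 in 20 h OA. Replicate 2 was the lowest of the SA arrays and still above all OA arrays; the difference was 0.74 ± 0.11 (SE, adjusted p = 1.92e-05). Spcs3, which the enzyme needs for activity, had 9.35, 9.42, 9.40 and 9.28 in SA and 8.92, 9.08, 8.99 and 9.03 in OA, apart on every array, by 0.36 ± 0.077 (SE, adjusted p = 0.00145). Of the catalytic paralogues, Sec11c rose by 0.28 ± 0.080 (SE, adjusted p = 0.0164), a call lost if SA replicate 1 was left out (adjusted p = 0.0612) and with the compared groups fitted alone (0.0564), and Sec11a differed by 0.16 ± 0.12 (SE, adjusted p = 0.503).

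The COPII coat, which forms the vesicles leaving the ER, changed in most of its genes: 10 of 14 rose and none fell (9 and none without replicate 2). Sec24 is the subunit that picks the cargo, and 3 of its 4 paralogues rose. Sec24d had 7.52, 7.56, 7.42 and 7.37 in 20 h SA and 6.34, 6.26, 6.21 and 6.15 in 20 h OA. All SA arrays were far above all OA arrays, and the difference was 1.23 ± 0.083 (SE, adjusted p = 4.42e-11), a 2.34-fold increase. Sec24a rose by 0.49 ± 0.088 (SE, adjusted p = 0.000177) and Sec24c, the closest relative of Sec24d, by 0.26 ± 0.084 (SE, adjusted p = 0.0321). The Sec24c call was also lost without SA replicate 1 or 3, OA replicate 1, 3 or 4, or the other groups (adjusted p = 0.0612 to 0.0917). Sec24b, the closest relative of Sec24a, had 8.33, 8.41, 8.22 and 8.41 in SA and 8.33, 8.34, 8.36 and 8.33 in OA, which overlap. Its difference was 0.00 ± 0.074 (SE, adjusted p = 0.992), with a 95% interval from -0.15 to 0.16. Sec23 pairs with Sec24 and triggers GTP hydrolysis by Sar1. Sec23b had 7.23, 7.24, 7.04 and 7.22 in 20 h SA and 6.68, 6.41, 6.37 and 6.38 in 20 h OA, a difference of 0.72 ± 0.089 (SE, adjusted p = 1.08e-06) without overlap, and Sec23a rose by 0.51 ± 0.094 (SE, adjusted p = 0.000257). In the outer cage Sec31a rose by 0.66 ± 0.073 (SE, adjusted p = 1.93e-07), and the dim Sec31b differed by 0.03 ± 0.16 (SE, adjusted p = 0.937). Of the scaffolds that mark ER exit sites, Sec16a rose by 0.43 ± 0.096 (SE, adjusted p = 0.00182) and the dim Sec16b differed by -0.18 ± 0.13 (SE, adjusted p = 0.438). The GTPase Sar1a rose by 0.29 ± 0.077 (SE, adjusted p = 0.00926), and its paralogue Sar1b differed by 0.18 ± 0.099 (SE, adjusted p = 0.268). In each of these families except Sec23 at least 1 paralogue was called and another was not; differences between paralogues were not themselves tested.

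**Figure D3:**
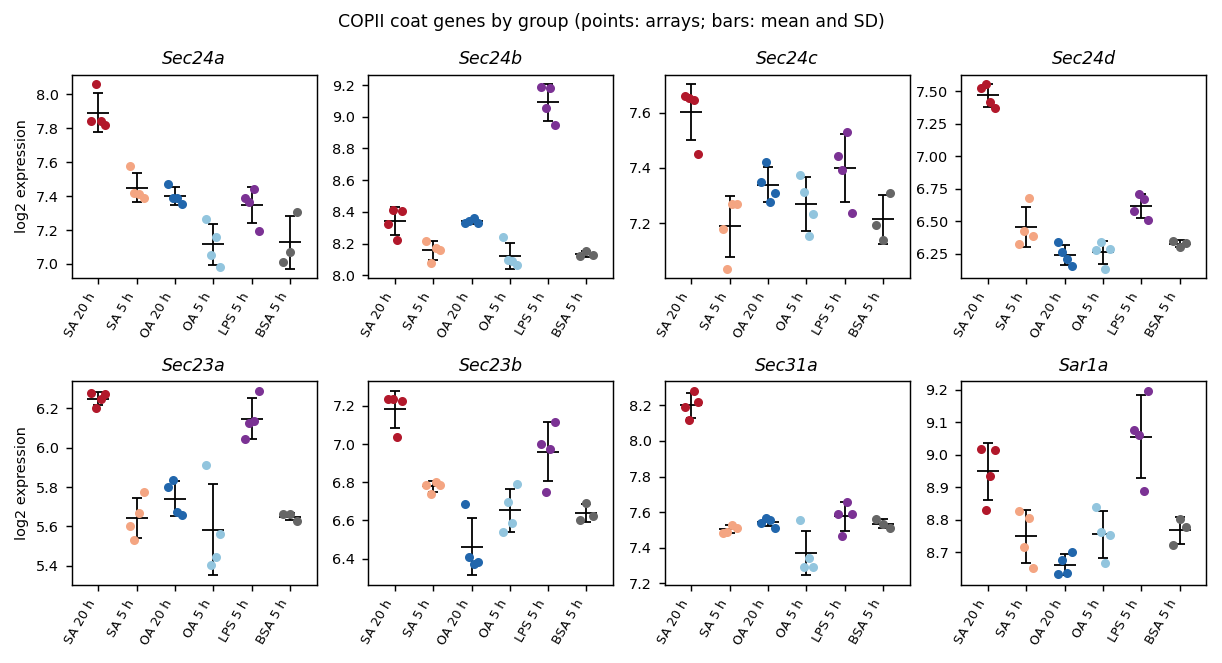
Log2 expression (y axes, each with its own range) of 8 COPII genes on every array (points) by group (x axis), with the mean and SD of each group as black bars. Sec24d is highest in 20 h SA, at 7.37 to 7.56, whereas Sec24b is highest with LPS, at 8.95 to 9.19.

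XBP1 and ATF6 are known to bind DNA with the core CCACGT, and XBP1 the longer element TGACGTGG. The longer element contains the core on the other strand. Whether either factor acted on these genes here was not tested. RefSeq gives a start site and promoter (GRCm38.p6) for 73 of the 88 genes, and the 250 bases before the start were searched on both strands. The core occurred in 20 of the 73 (27.4%), against 1456 of 15614 promoters of all measured genes (9.32%). The measured genes were not matched to the 73 for expression level or base content. Among the 73, it stood in 11 of 33 genes that rose with SA at 20 h (33.3%), 9 of 38 that were not called (23.7%) and 0 of 2 that fell, so the core was found in genes that rose and in genes that were not called. The 11 include Sec24c, Kdelr3, Tmed3 and Ssr1, whose calls were lost under some alternatives. For Ssr1 these were leaving out OA replicate 1 or SA replicate 3 of 20 h (adjusted p = 0.0688 and 0.0577). Fitting the 2 groups alone also ended its call (0.0769). TGACGTGG occurred in 4 of the 73 (5.48%), against 0.781% of the measured genes: Sec24d and Kdelr3, which rose, and Copb1 and Sec16b, which were not called. The ER stress element (CCAAT, any 9 bases, CCACG) and its second form (ATTGG, any 1 base, CCACG) were found in none of the 73 windows, against 0.128% and 0.0448% of the measured genes, and the cyclic AMP response element TGACGTCA in 1, Cope, against 2.33%. A match is a description of letters and was not tested as a binding site. Copb2, Tmed10 and Trappc2, which were not called, also hold the core within the last 40 bases before the start, and their sequences are not shown. The 120 bases before the start are shown for the 4 genes with TGACGTGG and for 3 that rose and hold the core within their last 40 bases, Srprb, Sec63 and Ssr1, 5′ to 3′ on the gene's strand, with the element in capitals (CCACGTCA is TGACGTGG read on the other strand). They lie at chr3:123267376-123267495 (plus strand, Sec24d), chr15:79516288-79516407 (plus, Kdelr3), chr7:114254681-114254800 (minus, Copb1), chr1:157506676-157506795 (plus, Sec16b), chr9:103202066-103202185 (minus, Srprb), chr10:42761376-42761495 (plus, Sec63) and chr13:37994209-37994328 (minus, Ssr1).
Sec24d: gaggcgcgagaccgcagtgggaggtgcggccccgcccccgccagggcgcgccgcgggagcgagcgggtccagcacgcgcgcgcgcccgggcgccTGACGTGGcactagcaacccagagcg
Kdelr3: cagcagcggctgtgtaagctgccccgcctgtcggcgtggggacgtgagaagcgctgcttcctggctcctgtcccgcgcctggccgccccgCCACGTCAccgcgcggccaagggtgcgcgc
Copb1: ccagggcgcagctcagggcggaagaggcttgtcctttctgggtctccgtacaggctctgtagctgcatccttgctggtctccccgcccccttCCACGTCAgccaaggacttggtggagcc
Sec16b: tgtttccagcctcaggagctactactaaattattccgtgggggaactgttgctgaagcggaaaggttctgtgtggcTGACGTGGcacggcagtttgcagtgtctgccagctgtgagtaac
Srprb: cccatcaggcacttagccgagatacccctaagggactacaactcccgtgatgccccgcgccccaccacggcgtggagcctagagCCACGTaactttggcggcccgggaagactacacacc
Sec63: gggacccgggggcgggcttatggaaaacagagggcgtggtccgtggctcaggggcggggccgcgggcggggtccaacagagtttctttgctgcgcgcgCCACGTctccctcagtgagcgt
Ssr1: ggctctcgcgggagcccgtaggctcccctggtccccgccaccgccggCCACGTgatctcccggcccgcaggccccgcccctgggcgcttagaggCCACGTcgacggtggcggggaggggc
In Sec24d, Kdelr3, Copb1 and Sec16b the element ends 19, 23, 21 and 37 bases before the start. The SA minus OA difference at 20 h was 1.23, 0.43, 0.17 and -0.18 in that order. Copb1 and Sec16b were not called (adjusted p = 0.149 and 0.438), and Kdelr3 and Sec16b were not shown to be above background.

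The COPI coat, which returns proteins to the ER, changed in fewer subunits: 3 of 8 rose and 1 fell (2 and 1 without replicate 2). Copa, higher by 0.24 (adjusted p = 0.0324), lost its call without any 1 array except OA replicate 2 (0.0503 to 0.0857). Its call was also lost with the 2 groups fitted alone (adjusted p = 0.061). Cope, the ε subunit, had 8.76, 8.43, 8.75 and 8.67 in 20 h SA and 8.05, 7.90, 8.13 and 8.14 in 20 h OA. Its groups were apart by 0.60 ± 0.089 (SE, adjusted p = 1.62e-05). The γ subunit has a pair of paralogues whose differences had opposite signs. Copg1 had 6.72, 6.76, 6.51 and 6.52 in SA and 6.48, 6.21, 5.91 and 6.00 in OA, higher with SA by 0.48 ± 0.11 (SE, adjusted p = 0.00368); the lowest SA array was only just above the highest OA array. Copg2 had 6.71, 6.64, 6.52 and 6.85 in SA and 7.10, 7.02, 6.96 and 6.92 in OA, a difference of -0.32 ± 0.097 (SE, adjusted p = 0.0222). The Copg2 call was lost if SA replicate 3 was left out (adjusted p = 0.0942) or without replicate 1 (0.076) or 2 (0.0515) of 20 h OA. The ζ subunits Copz1 and Copz2 differed by 0.21 ± 0.086 (SE, adjusted p = 0.107) and -0.17 ± 0.12 (SE, adjusted p = 0.429).

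Among cargo receptors and p24 proteins 8 of 16 rose and none fell (9 and none without replicate 2). Surf4, a receptor that loads soluble secreted proteins into COPII vesicles, had 9.34, 9.14, 9.29 and 9.24 in 20 h SA and 8.43, 8.39, 8.42 and 8.44 in 20 h OA. The OA arrays lay close together, all below SA, and the difference was 0.83 ± 0.080 (SE, adjusted p = 1.87e-08). Lman1, the lectin that with Mcfd2 carries clotting factors out of the ER, had 7.72, 7.50, 7.59 and 7.57 in SA and 7.08, 7.02, 6.98 and 6.99 in OA, also apart, by 0.58 ± 0.089 (SE, adjusted p = 2.55e-05). The p24 protein Tmed2 rose by 0.53 ± 0.067 (SE, adjusted p = 1.74e-06). The relatives of Lman1 did not pass the test: Lman2 differed by 0.27 ± 0.11 (SE, adjusted p = 0.0895), Lman2l by -0.20 ± 0.16 (SE, adjusted p = 0.529) and the dim Lman1l by 0.23 ± 0.12 (SE, adjusted p = 0.275). Of the KDEL receptors, Kdelr3 had 3.44, 3.53, 3.74 and 3.67 in 20 h SA and 3.10, 3.13, 3.03 and 3.41 in 20 h OA. The groups did not overlap and differed by 0.43 ± 0.13 (SE, adjusted p = 0.0254), but all its levels are below the array medians, and the adjusted p was 0.0854 or 0.0663 without replicate 3 or 4 of 20 h SA and 0.0691, 0.0592 or 0.0842 without replicate 1, 2 or 3 of 20 h OA. The well-expressed Kdelr1 differed by 0.18 ± 0.092 (SE, adjusted p = 0.222). Kdelr2 was not analysed here.

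Tethers and SNAREs dock and fuse the vesicles, and 5 of 21 rose and 2 fell (6 and 1 without replicate 2). Bet1, a SNARE of vesicles between ER and Golgi, had 7.74, 7.64, 7.74 and 7.72 in 20 h SA and 6.19, 6.52, 6.29 and 6.43 in 20 h OA. This was the largest change of the 88 genes in this comparison, 1.35 ± 0.10 (SE, adjusted p = 4.25e-10), or 2.55-fold. Bet1l, its relative within the Golgi, had 7.51, 7.11, 7.61 and 7.45 in SA and 6.90, 6.75, 6.85 and 6.80 in OA, apart by 0.59 ± 0.11 (SE, adjusted p = 0.000171). The SNARE partners of Bet1 also rose, Stx5a by 0.55 ± 0.090 (SE, adjusted p = 5.2e-05) and Sec22b by 0.38 ± 0.082 (SE, adjusted p = 0.00155). The Sec22 relatives Sec22a and Sec22c differed by 0.13 ± 0.11 (SE, adjusted p = 0.556) and 0.08 ± 0.14 (SE, adjusted p = 0.821). Over all genes 7.72% rose and 8.95% fell in this comparison. Of 15 measured TRAPP genes, which encode subunits of a tethering complex, 1 rose and 2 fell. They were Trappc10 (0.37 ± 0.085, adjusted p = 0.00242), Trappc1 (-0.29 ± 0.079, adjusted p = 0.00997) and Trappc6a (-0.34 ± 0.11, adjusted p = 0.0387); Trappc6a and Trappc10 were named after their values were seen. The Trappc6a call was lost without SA replicate 2 or 3 or OA replicate 3 or 4 (adjusted p = 0.0812 to 0.185), with arrays centred (0.0592) and with the 2 groups fitted alone (0.144). Without SA replicate 2, Trappc5 was called higher with SA, by 0.39 (adjusted p = 0.045). None of the 6 genes that share only the prefix was called by limma, with 1 at an unadjusted p under 0.05.

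**Figure D4:**
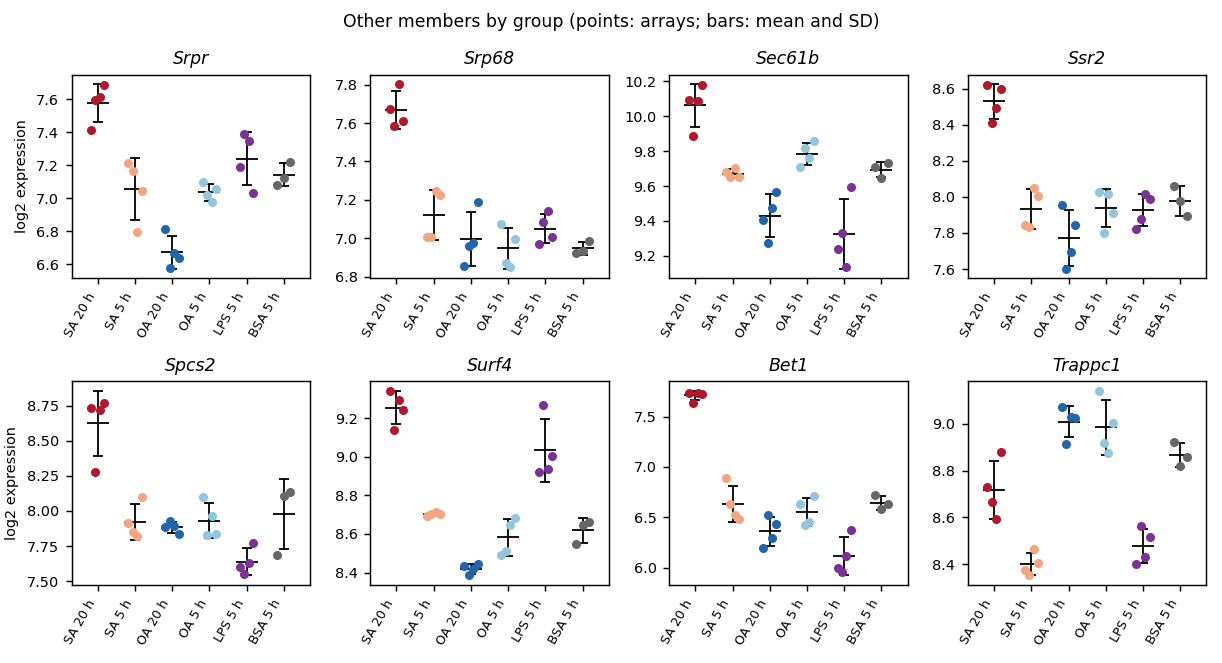
Log2 expression (y axes, each with its own range) of 8 genes of other roles on every array (points) by group (x axis), with the mean and SD of each group as black bars. Bet1 is highest in 20 h SA, at 7.64 to 7.74, and lowest with LPS, at 5.96 to 6.38; Trappc1 is lowest in 5 h SA, at 8.35 to 8.47.

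The rest of the pathway, taken from lists of genes outside the naming rule, was read in the same way at 20 h. Of 44 measured partners (other coat, Golgi, SNARE and oligosaccharyltransferase genes) 24 rose and 5 fell with SA relative to OA (23 and 4 without replicate 2). Over all genes 7.72% rose and 8.95% fell. The lowest difference was that of Use1, -0.59, with 8.24, 7.39, 8.29 and 8.28 in 20 h SA and 8.53, 8.53, 8.79 and 8.69 in 20 h OA. Risen partners included Golgb1 (0.73 ± 0.093, adjusted p = 1.66e-06), a Golgi tether, Ostc (0.73 ± 0.086, adjusted p = 4.8e-07), a subunit of the enzyme that attaches sugar chains to entering proteins, Gorasp2 (0.73 ± 0.081, adjusted p = 1.75e-07), a Golgi stacking protein, and Uso1 (0.70 ± 0.074, adjusted p = 8.3e-08), the tether p115. Of 11 measured regulators 6 rose and none fell: the sensor gene Ern1, which encodes IRE1, rose by 0.97 ± 0.097 (SE, adjusted p = 3.74e-08), Creb3l2, a transcription factor of the secretory pathway, by 0.84 ± 0.12 (SE, adjusted p = 1.43e-05), Atf6 by 0.52 ± 0.083 (SE, adjusted p = 4.63e-05) and Eif2ak3, which encodes PERK, by 0.49 ± 0.12 (SE, adjusted p = 0.00482). Xbp1 had 7.15, 7.15, 7.26 and 7.12 in 20 h SA and 6.71, 6.95, 6.79 and 6.87 in 20 h OA, a difference of 0.34 ± 0.075 (SE, adjusted p = 0.00181). Its spliced form was not measured apart. Of 8 classical unfolded protein response genes all 8 rose. Hspa5, the main ER chaperone, rose by 1.29 ± 0.074 (SE, adjusted p = 2.04e-12), more than every one of the 88 except Bet1.

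At 5 h few of these genes were called between the acids. Of the 88, 3 were higher with SA and 1 was lower, or 4.55%, where 5.67% of all genes were called (3.3% up and 2.37% down). The groups did not overlap for 9 of the 88, where that held for 10.4% of all genes, and the median difference was -0.01. Of the macrophage markers 3 of 9 were lower with SA, with a lowest difference of -1.07, as was 1 of 4 T and B cell markers. Without replicate 2 of 5 h OA 2 were called. None of 7 targeting genes, 9 channel genes, 5 signal peptidase genes, 8 COPI genes, 16 cargo receptor genes and 2 KDEL receptor genes was called by limma (0, 0, 1, 0, 2 and 0 at an unadjusted p under 0.05). Trappc1 had 8.37, 8.35, 8.47 and 8.41 in 5 h SA and 9.14, 8.92, 8.88 and 9.00 in 5 h OA. All SA arrays were below all OA arrays, by -0.58 ± 0.079 (SE, adjusted p = 1.77e-05), and the call stood under every alternative run. Bet1l had 7.24, 6.98, 7.27 and 7.24 in SA and 7.02, 6.59, 6.58 and 6.69 in OA, which overlap because SA replicate 2 was below OA replicate 1; the difference was 0.46 ± 0.11 (SE, adjusted p = 0.00782). Sec14l1, one of the genes that share only the prefix, had 6.41, 6.39, 6.65 and 6.37 in SA and 6.20, 6.04, 6.02 and 6.19 in OA, a difference of 0.34 ± 0.091 (SE, adjusted p = 0.0241). Sec24a was higher by 0.33 ± 0.088 (SE, adjusted p = 0.0224). With the 2 groups fitted alone, Bet1l, Sec14l1 and Sec24a were not called (adjusted p = 0.0685, 0.107 and 0.106), and leaving out 1 array ended the call of Sec14l1 (OA replicate 2 or 3 or SA replicate 3, up to 0.108) and Sec24a (OA replicate 2 or 4 or SA replicate 1, up to 0.0892). Of the 8 unfolded protein response genes 4 were higher with SA at 5 h, among them Ddit3, a transcription factor of the PERK branch, by 1.48 ± 0.10 (SE, adjusted p = 2.67e-10) and Hspa5 by 0.32 ± 0.074 (SE, adjusted p = 0.00874). The other 4 were not called, with differences from -0.06 to 0.09. Whether the changes of these 8 genes bear on those of the 88 was not tested.

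The change of the SA to OA difference between the times was tested as an interaction. For 24 of the 88 genes SA minus OA was more positive at 20 h than at 5 h and for none more negative, where 4.98% of all genes were called, 1.58% more positive and 3.4% more negative; limma gave 38 at an unadjusted p under 0.05. Of the macrophage markers 6 of 9 were more negative, with a lowest value of -2.39, and the part of this in the 24 was not tested. The median interaction was 0.19 over the 88 and 0.01 over all genes. By role these were 4 of 7 targeting genes, 6 of 9 channel genes, 2 of 5 signal peptidase genes, 3 of 14 COPII genes, 2 of 8 COPI genes, 4 of 16 cargo receptors, 3 of 21 tethers and SNAREs and neither KDEL receptor. Bet1 had the largest (1.27 ± 0.15, adjusted p = 2.03e-06), followed by Sec24d (1.03 ± 0.12, adjusted p = 1.47e-06) and Srpr (0.89 ± 0.14, adjusted p = 0.000107). For Bet1 the 5 h arrays ranged from 6.48 to 6.89 with SA and 6.42 to 6.71 with OA, so that the acids overlapped at 5 h and not at 20 h.

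Each acid was also followed over time. With SA, 33 of the 88 genes were higher at 20 h than at 5 h and none lower (38 without replicate 2), where 12.8% of all genes were called, 6.23% up and 6.57% down; limma gave 49 at an unadjusted p under 0.05. Over the same time 1 of 9 macrophage markers rose and 6 fell, with a lowest difference of -2.17, and 2 of 6 neutrophil markers rose, Ltf by 1.01 and Ngp by 0.79. The summed level of the 6 was 577 to 647 in 20 h SA and 317 to 495 in 5 h SA. The part of these shifts was not tested. Bet1 had 7.74, 7.64, 7.74 and 7.72 in 20 h SA and 6.89, 6.63, 6.52 and 6.48 in 5 h SA, a difference of 1.08 ± 0.10 (SE, adjusted p = 3.42e-08). Sec24d had 7.37 to 7.56 in 20 h SA and 6.33, 6.42, 6.68 and 6.39 in 5 h SA, up by 1.02 ± 0.083 (SE, adjusted p = 1.88e-09). For Spcs2 the 5 h SA arrays were at 7.92, 7.85, 7.82 and 8.10, all below the 8.28 to 8.77 of 20 h SA, and the rise was 0.70 ± 0.11 (SE, adjusted p = 5.58e-05). None of these genes overlapped between the times. Among the other roles Sec31a rose by 0.70 ± 0.073 (SE, adjusted p = 1.18e-07), Sec23a by 0.60 ± 0.094 (SE, adjusted p = 4.31e-05), Lman1 by 0.62 ± 0.089 (SE, adjusted p = 1.57e-05) and Ssr2 by 0.60 ± 0.089 (SE, adjusted p = 2.66e-05). Kdelr1 rose by 0.37 ± 0.092 (SE, adjusted p = 0.00627). Spcs3 (0.59), Srp68 (0.55), Surf4 (0.55), Srp72 (0.54) and Tmed2 (0.54) rose as well. So did Sec61a1 (0.52), Sec22b (0.46), Copg1 (0.45) and Cope (0.44). From Spcs3 to Cope the adjusted p-values ran from 1.68e-06 for Tmed2 to 0.00824 for Copg1. Copa, the α subunit of COPI, rose by 0.29 ± 0.076 (SE, adjusted p = 0.0106); the call was lost when 5 h SA replicate 2 was left out (adjusted p = 0.0544) and with the 2 groups fitted alone (0.0948), a fit in which Stx5a, up by 0.38 ± 0.090 (SE, adjusted p = 0.00443), was not called either (0.0654). Trappc1, low at 5 h, was higher at 20 h by 0.32 ± 0.079 (SE, adjusted p = 0.00678), a call lost with the 2 groups fitted alone (adjusted p = 0.0677).

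With OA, 2 of the 88 genes were higher and 2 lower at 20 h than at 5 h, where 4.38% of all genes were called (2.58% up and 1.8% down). Of the macrophage markers 3 of 9 rose and 1 fell over that time, and the same 2 neutrophil markers rose, Ltf by 0.72 and Ngp by 0.55, with a summed level for the 6 of 587 to 664 in 20 h OA and 430 to 537 in 5 h OA. Sec14l1 had 6.64, 6.49, 6.39 and 6.49 in 20 h OA and 6.20, 6.04, 6.02 and 6.19 in 5 h OA, a difference of 0.39 ± 0.091 (SE, adjusted p = 0.0116), and Copg2 was higher by 0.35 ± 0.097 (SE, adjusted p = 0.0392). Srpr was lower at 20 h, with 6.81, 6.58, 6.67 and 6.63 in 20 h OA and 7.10, 7.02, 6.97 and 7.05 in 5 h OA (-0.36 ± 0.097, adjusted p = 0.0282). Sec61b was lower as well, with 9.41, 9.27, 9.48 and 9.57 in 20 h OA and 9.71, 9.82, 9.76 and 9.86 in 5 h OA (-0.36 ± 0.092, adjusted p = 0.0229). With SA the same 2 genes rose over time by 0.52 and 0.39, and both interactions passed the test (0.75 ± 0.13 (SE, adjusted p = 0.000408) for Sec61b, with that of Srpr given above). The calls of all 4 rested on single arrays. That of Srpr was lost without OA 20 h replicate 2, 3 or 4 or OA 5 h replicate 1, 2 or 4 (adjusted p = 0.0601 to 0.101), and that of Sec61b without OA 20 h replicate 1 or 2 or OA 5 h replicate 2 or 4 (0.0638 to 0.103). Copg2 was not called without any 1 of the 4 OA 20 h arrays or OA 5 h replicate 2 or 3 (0.0523 to 0.171), and Sec14l1 not without OA 20 h replicate 1 (0.059). With arrays centred on their medians 1 was higher and 2 were lower.

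Against the vehicle at 5 h few of these genes were called. With SA, 1 of the 88 was called, where 3.33% of all genes were, 1.39% in the direction of a fall. With SA 2 of 9 macrophage markers, 1 of 6 neutrophil markers and 1 of 4 T and B cell markers also fell. Trappc1 had 8.37, 8.35, 8.47 and 8.41 in 5 h SA and 8.92, 8.82 and 8.86 with BSA, a fall without overlap (-0.47 ± 0.085, adjusted p = 0.00137). With OA, limma called none of the 88, with 4 at an unadjusted p under 0.05 and 0 called under every alternative run, where 0.0702% of all genes were called (0.0201% up). Trappc1 with OA was at 9.14, 8.92, 8.88 and 9.00, overlapping the BSA arrays, and differed from BSA by 0.12 ± 0.085 (SE, adjusted p = 0.94). The comparisons with the vehicle share its 3 arrays.

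With LPS the share of these genes that was called lay near that of all genes. Of the 88 genes 7 rose and 17 fell relative to BSA, or 27.3%, where 22.4% of all genes were called (9.22% up and 13.2% down). The groups did not overlap for 31 of the 88, where that held for 29.8% of all genes, so neither count sets the 88 apart. With arrays centred on their medians 8 rose and 10 fell, and with quantile normalisation 6 rose and 22 fell. Of the macrophage markers 2 of 9 rose and 3 fell with LPS. Among markers of other cells 2 of 6 for neutrophils rose, Camp by 0.81 and Ltf by 0.51 (summed level 655 to 822 with LPS and 455 to 574 with BSA), Pdgfrb, 1 of 5 stromal markers, rose by 1.78, and 1 of 4 T and B cell markers fell. The part of these shifts in the changes with LPS was not tested. Of the 7 that rose, 6 were among the 14 COPII genes, of which none fell, and the other was Surf4 (0.41 ± 0.087, adjusted p = 0.000784). Sec24b, the Sec24 paralogue that was not called between the acids at 20 h, had 9.19, 9.05, 9.18 and 8.95 with LPS and 8.12, 8.16 and 8.13 with BSA. All LPS arrays were above all BSA arrays, by 0.96 ± 0.080 (SE, adjusted p = 9.65e-10), or 1.94-fold. Sec23a, the inner coat subunit, rose by 0.50 ± 0.10 (SE, adjusted p = 0.000584), and Sec23ip, which binds Sec23 at exit sites, by 0.38 ± 0.090 (SE, adjusted p = 0.00242). Sec23b rose by 0.32 ± 0.097 (SE, adjusted p = 0.0156), Sec24d by 0.29 ± 0.090 (SE, adjusted p = 0.0199) and Sar1a by 0.29 ± 0.083 (SE, adjusted p = 0.0124). Leaving out 1 array ended the call of Sec23b (BSA replicate 1 or 3 or LPS replicate 4, adjusted p = 0.0524 to 0.0597), Sec24d (BSA replicate 2 or 3 or LPS replicate 2 or 3, 0.0504 to 0.0722) and Sar1a (BSA replicate 1, 0.0563). With the 2 groups fitted alone Sec23b and Sar1a were not called (0.0535 and 0.0679), and with quantile normalisation Sar1a was not called (0.0584). The calls of Sec24b, Sec23a and Sec23ip stood under every alternative run. The remaining Sec24 paralogues differed by 0.22 ± 0.095 (SE, adjusted p = 0.113) for Sec24a and 0.19 ± 0.091 (SE, adjusted p = 0.166) for Sec24c.

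The 17 that fell with LPS were spread over the other roles: 2 of 7 targeting genes, 1 of 9 channel genes, 3 of 5 signal peptidase genes, 4 of 16 cargo receptors, 1 of 2 KDEL receptors, 5 of 21 tethers and SNAREs and Sec14l1, while none of 8 COPI genes was called by limma (2 at an unadjusted p under 0.05). Sec22c had 3.91, 4.54, 4.18 and 3.92 with LPS and 4.73, 4.83 and 4.77 with BSA, lower on every LPS array, by -0.64 ± 0.16 (SE, adjusted p = 0.00325). Its levels on LPS replicates 1 and 4 were below the medians of those arrays, both 4.01. Sec14l1 had 5.80, 5.89, 5.64 and 5.60 with LPS and 6.18, 6.32 and 6.46 with BSA (-0.59 ± 0.098, adjusted p = 5.62e-05). Several genes that rose with SA at 20 h were among those that fell with LPS. The SNAREs Bet1 and Stx5a fell by 0.53 ± 0.11 (SE, adjusted p = 0.00085) and 0.41 ± 0.097 (SE, adjusted p = 0.00278), and Sec61b by 0.37 ± 0.099 (SE, adjusted p = 0.00722). In the signal peptidase Sec11c fell by 0.38 ± 0.086 (SE, adjusted p = 0.00171), Spcs2 by 0.34 ± 0.12 (SE, adjusted p = 0.0435) and Spcs3 by 0.27 ± 0.084 (SE, adjusted p = 0.0185). Of Srp14, Srp9, Tmed3, Tmed10 and Kdelr1, only Tmed3 was called up with SA at 20 h in the full fit. With LPS, Srp14 and Srp9 fell by 0.44 ± 0.14 (SE, adjusted p = 0.019) and 0.34 ± 0.086 (SE, adjusted p = 0.0045). Tmed3 and Tmed10 fell by 0.38 ± 0.10 (SE, adjusted p = 0.00803) and 0.33 ± 0.085 (SE, adjusted p = 0.0058), and Kdelr1 by 0.29 ± 0.099 (SE, adjusted p = 0.0367). Centring the arrays ended the calls of Kdelr1, Spcs2, Spcs3 and Srp14 (adjusted p = 0.12, 0.141, 0.0671 and 0.0642). With the 2 groups fitted alone Kdelr1, Spcs2 and Spcs3 were not called (0.0553, 0.0815 and 0.0517), nor was Spcs2 when every probe set was tested (0.061). Leaving out 1 array also ended them: BSA replicate 1 or 3 or LPS replicate 3 or 4 for Kdelr1 (0.0759 to 0.142), BSA replicate 2 or 3 or LPS replicate 1, 2 or 3 for Spcs2 (0.0777 to 0.221), BSA replicate 1 or 2 for Spcs3 (0.0605 and 0.0629) and BSA replicate 2 or 3 or LPS replicate 3 for Srp14 (0.0584 to 0.0827). Tmed3 was not called without BSA replicate 2 (0.0593).

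**Figure D5:**
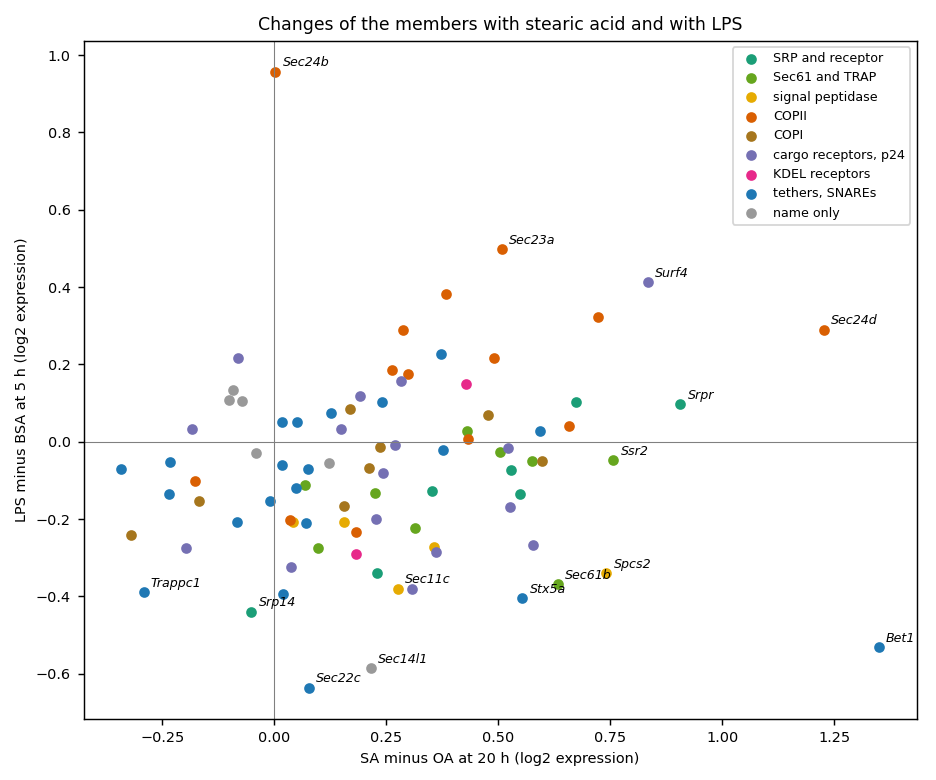
Difference in log2 expression of each of the 88 genes (points, coloured by role) between SA and OA at 20 h (x axis) and between LPS and BSA at 5 h (y axis); the 2 differences share no array. Sec24b lies high on the y axis near 0 on the x axis, Surf4 and Sec24d are above 0 on both, and Bet1 is far to the right and below 0 on the y axis.

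Set side by side, Sec24d, Sec23a, Sec23b, Sec23ip, Sar1a and Surf4 rose both with SA relative to OA at 20 h and with LPS relative to BSA at 5 h. Bet1, Stx5a, Sec61b, Spcs2, Spcs3, Sec11c, Tmed3, Lman1 and Mcfd2 rose in the first and fell in the second, Lman1 with LPS by only -0.27 ± 0.096 (SE, adjusted p = 0.0478) and Mcfd2 by -0.28 ± 0.085 (SE, adjusted p = 0.0155); both were named after their values were seen. Both LPS calls were lost with the 2 groups fitted alone (adjusted p = 0.0729 and 0.0707), that of Lman1 also with the replicate number as a block (0.0742) and with every probe set tested (0.0524), and that of Mcfd2 with quantile normalisation (0.0502). They were lost too with centred arrays (adjusted p = 0.158 and 0.0793), that of Lman1 without any 1 array except LPS replicate 3 (up to 0.185) and that of Mcfd2 without BSA replicate 1 or 3 or LPS replicate 4 (up to 0.0707). For Tmed3 the rise with SA at 20 h was 0.31 ± 0.096 (SE, adjusted p = 0.026) and not called without SA replicate 1 or 4 or OA replicate 2 or 3 (up to 0.124). Trappc1, with 8.40, 8.56, 8.43 and 8.52 with LPS and 8.92, 8.82 and 8.86 with BSA, fell in both, with LPS by -0.39 ± 0.085 (SE, adjusted p = 0.00123). The 2 comparisons differ in time and in their controls, and the difference between them was not tested. Of the partner genes 8 of 44 rose and 12 fell with LPS: Arf4, a small GTPase of the Golgi, rose by 0.63 ± 0.093 (SE, adjusted p = 9.68e-06) and Erp29, an ER chaperone, fell by 0.91 ± 0.090 (SE, adjusted p = 1.9e-08). Of the 8 unfolded protein response genes 1 rose and 4 fell with LPS: Hspa5 rose by 0.36 ± 0.080 (SE, adjusted p = 0.00121), and Dnajb9, its J-domain partner, fell by 0.41 ± 0.11 (SE, adjusted p = 0.00843).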

How the data were processed

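Total RNA of each sample, about 10 ng, was amplified and labelled with biotin, per the labels' protocols. The deposited matrix holds, for each array, log2 values of its probe sets, made by the authors with RMA per the submitters' processing notes; these also name limma, without its role, and no versions. RMA brings arrays to a common distribution, so the changes are relative ones. Of 35556 probe sets, 21789 carried 1 gene symbol and entered the tests. The brightest probe set stood for each of the 999 genes that had several. Of the rest, 1621 carried several symbols and 12146 were not in the probe table. A mean per group was fitted to all 19938 genes in R 4.3.3 (limma 3.58.1, moderated by empirical Bayes), with two-sided Benjamini-Hochberg adjusted p-values within each of 8 comparisons. The number of arrays, 3 or 4 a group, limits the precision. The members and lists were chosen with earlier results of these data known. Named were, per comparison, the 3 called genes of largest change in each role, paralogue sets whatever their values, and up to 4 called genes of each list outside the rule, plus Xbp1 and Hspa5; arrays are given singly for the largest. The fit was tested on simulated data. The alternatives tried were robust moderation with a variance trend, centring, quantile normalisation, array weights, a filter on the dimmest 25% of genes, other probe set rules, fits of only the compared groups, the replicate number as a block, and each array left out in turn. Promoters come from RefSeq (GRCm38.p6). Plots were made in Python 3.11.15 (matplotlib 3.10.9).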

Additional observations from a re-analysis of the deposited data

Results flagged for a closer look

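For 24 of the 88 genes SA minus OA was more positive at 20 h than at 5 h by the test of the interaction. The 19 given here have the largest values, up to 3 in each role. On the log2 scale the interaction was 0.89 for Srpr, 0.64 for Srp72 and 0.56 for Srprb in targeting, 0.76 for Ssr2, 0.75 for Sec61b and 0.59 for Sec61a1 at the channel, and 0.75 for Spcs2 and 0.60 for Spcs3 in the signal peptidase. It was 1.03 for Sec24d, 0.60 for Sec23b and 0.52 for Sec31a in COPII, 0.70 for Copg1 and 0.64 for Cope in COPI, 0.71 for Surf4, 0.71 for Lman1 and 0.62 for Tmed2 among cargo receptors and p24 proteins, and 1.27 for Bet1, 0.49 for Stx5a and 0.45 for Sec22b among SNAREs. Among these 19, adjusted p-values ran from 1.47e-06 for Sec24d to 0.0220 for Stx5a. Of the calls not listed, that of Ssr1 was lost when single arrays were left out (adjusted p up to 0.0871). It was also lost with the compared groups fitted alone (0.0587). Without OA 20 h replicate 2 or SA 20 h replicate 4, Tmed3 was not called (0.0528 and 0.0501). The call of Sec22b was lost without OA 20 h replicate 1 or SA 20 h replicate 3 (adjusted p = 0.0528 and 0.0569). That of Stx5a was lost without OA 20 h replicate 2 or 3, SA 5 h replicate 4 or SA 20 h replicate 1 (0.0515 to 0.0595), and with the compared groups fitted alone (0.0544).

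Single arrays stood far from the rest of their group in 18 of 255 groups of 4 arrays, where chance gives about 1 in 20. Of these, 6 were replicate 2 of 20 h SA: its level was 7.64 for Bet1 (others 7.72 to 7.74), 8.16 for Sec11a (8.74 to 8.82), 8.28 for Spcs2 (8.72 to 8.77), 8.85 for Srp14 (9.40 to 9.49), 9.91 for Tmed10 (10.22 to 10.26) and, higher than the rest, 8.06 for Sec24a (7.82 to 7.84). In 20 h SA, Sec23b was at 7.04 on replicate 3 (7.22 to 7.24), and replicate 4 had 7.45 for Sec24c (7.65 to 7.66) and 5.51 for Sec61a2 (5.22 to 5.26). In 5 h SA, replicate 2 had 6.98 for Bet1l (7.24 to 7.27), replicate 3 had 6.65 for Sec14l1 (6.37 to 6.41) and 8.36 for Sec61a1 (8.28 to 8.29), and replicate 1 had 7.58 for Sec24a (7.39 to 7.42). In 20 h OA, replicate 1 had 6.68 for Sec23b (6.37 to 6.41) and 4.60 for Lman2l (5.03 to 5.10). In 5 h OA, Lman2 was at 7.95 on replicate 1 (7.72 to 7.74) and Lman2l at 4.74 on replicate 2 (5.28 to 5.39). With LPS, Srp9 was at 9.01 on replicate 4 (8.74 to 8.77).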

How the results depend on the processing

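No called value of the 88 genes changed direction under any alternative run. For the 135 calls of a gene in a comparison, leaving out 1 array gave 1247 values, of which 1107 kept their call and 140 lost it, and the other alternatives gave 1215 values, of which 1164 kept it and 51 lost it. Leaving out 1 array at a time, the number of the 88 genes called was 35 to 46 for SA against OA at 20 h (35 without SA replicate 3), 2 to 4 for SA against OA at 5 h (2 without OA replicate 2), 21 to 25 for the interaction, 30 to 38 for SA at 20 h against 5 h and 17 to 22 for LPS against BSA. It was 1 to 4 for OA at 20 h against 5 h (1 without OA 5 h replicate 2 or OA 20 h replicate 1 or 2, and 2 without OA 5 h replicate 4 or OA 20 h replicate 3 or 4), 1 to 2 for SA against BSA (2 without BSA replicate 3) and 0 to 0 for OA against BSA. With the compared groups fitted alone, 1 gene was called for SA against OA at 5 h (4 in the full fit) and 2 for OA at 20 h against 5 h (4). A variance trend with robust moderation gave 7 for OA at 20 h against 5 h (4) and 3 for SA against BSA (1), where array weights, leaving out the dimmest 25% of genes and the replicate block gave 2 each; the causes were not tested. The labels give no shared source for a replicate number, and in no comparison were all correlations of same-numbered arrays (of deviations from the group means) over 0.1, so the numbers were not used as pairs. For SA and OA at 20 h the 4 correlations were 0.11, 0.20, 0.03 and 0.11; over all 25 pairs they ran from -0.11 to 0.20, and 4 were over 0.1. With the replicate block the number called was 46 for the acids at 20 h, 4 at 5 h, 24 for the interaction, 35 and 4 for SA and OA over time, 2 and 0 for SA and OA against BSA and 24 for LPS; among calls of single genes that of Lman1 with LPS was lost with the block (adjusted p = 0.0742). Centring the arrays moved the median gene by -0.05 for LPS against BSA. The 12 dim genes have no shown signal over background, which limits what can be said of them.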

Other observations

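For 5 of the 88 genes the arrays carry more than 1 probe set with that symbol, and the report uses the brightest. For SA minus OA at 20 h, the 3 probe sets of Sec61b gave 0.63, 0.60 and 0.58, and the 3 of Tmed2 gave 0.53, 0.61 and 0.66. The 2 of Srp9 gave 0.23 and 0.09, the 2 of Tmed10 gave 0.04 and 0.13, and the 2 of Trappc2 gave 0.02 and 0.03. For LPS minus BSA, Sec61b gave -0.37, -0.37 and -0.40, Srp9 gave -0.34 and -0.36, and Tmed10 gave -0.33 and -0.13. The probe sets of Srp9 differ in sign for SA minus OA at 5 h, with -0.04 for the brighter and 0.17 for the dimmer one.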
